A study of Homo sapiens with 6 samples.

Results

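NRF2, encoded by NFE2L2, is the transcription factor that switches on the antioxidant and detoxifying enzymes of a cell. In unstressed cells KEAP1 hands NRF2 to a CUL3 ubiquitin ligase for degradation, and oxidants or electrophiles that modify KEAP1 let NRF2 accumulate. NRF2 then pairs with a small MAF protein and binds the antioxidant response element, from which genes for glutathione synthesis, thioredoxin recycling, quinone reduction and heme breakdown are transcribed. The activity of NRF2 is set mainly through protein stability, so the mRNA of NFE2L2 is not a measure of it.

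The 9 genes described here were NFE2L2 and KEAP1 themselves and the antioxidant genes NQO1, TXNRD1, SRXN1, GCLC, GCLM, HMOX1 and OSGIN1. They were found by their symbols among the 24462 gene symbols of the count files, each had a single row, and all 9 were among the 16314 genes that passed the filter on low counts. RNA-seq was performed on PC3, a human prostate cancer cell line established from a bone metastasis. The cells received either a non-targeting siRNA (si-Control, 3 libraries) or an siRNA against CITED2 (si-CITED2, 3 libraries) at 80 nM, and RNA was taken 72 h after transfection. CITED2 is a coregulator that binds the acetyltransferases CBP and p300. The methods of the study list 1 siRNA sequence for CITED2, whereas the labels speak of siRNAs. No untransfected cells were analysed here, so a response to transfection that both siRNAs cause alike is not visible in the comparison. A response particular to the sequence of either siRNA cannot be told apart from an effect of CITED2. The study describes the transfections as independent experiments. Total counts per library were 19886454 to 28936374 with the non-targeting siRNA and 19508925 to 24836392 with si-CITED2.

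The targeted mRNA did not fall. CITED2 was counted 966, 1108 and 657 times in the si-Control libraries and 893, 964 and 898 times in the libraries labelled si-CITED2. After TMM normalization (counts scaled to a common effective library size) the level was 841.2 ± 61.4 (SD, n = 3) and 996.4 ± 82.4 (SD, n = 3), 0.24 higher on the log2 scale, with a standard error of 0.0744 (edgeR quasi-likelihood test, adjusted p = 0.0363). The call was lost without si-Control replicate 1 or 3 and without si-CITED2 replicate 1 or 3 (edgeR adjusted p from 0.0536 to 0.154). The direction therefore goes against the label at the mRNA level. The study checked the knockdown on the protein by immunoblot, which is not part of the count files. Whether any labels were exchanged was not tested, and an exchange of the groups would turn every direction given here. Each direction is that of the libraries labelled si-CITED2 relative to si-Control. Among the markers of the cells, the epithelial keratins KRT8 and KRT18 averaged 18149 and 11505 normalized counts in si-Control and 21476 and 13034 with si-CITED2. EPCAM, an epithelial adhesion molecule, averaged 2798 and 2225 in these groups. All 3 passed the test (KRT8 and KRT18 higher, EPCAM lower), and their part in the other results was not tested. KLK3, which encodes prostate-specific antigen, had 2 counts in 1 library and 0 in the other 5. Of 10 markers of leukocytes, endothelium and fibroblasts, 8 stayed under the filter, with 13 to 27 summed counts in the si-Control libraries and 19 to 26 in the others. The remaining ones were CD68 (3299 and 3108 normalized counts in the groups, adjusted p = 0.404, edgeR) and COL1A1 (121.9 and 152.7, adjusted p = 0.105, edgeR).

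Most of the antioxidant genes were lower in the libraries labelled si-CITED2, while HMOX1 was higher. Of the 9 genes, 5 fell (NQO1, TXNRD1, SRXN1, GCLC and OSGIN1), 1 rose (HMOX1) and 3 did not pass the test (NFE2L2, KEAP1 and GCLM) at an adjusted p under 0.05 in the edgeR quasi-likelihood test. Across all 16314 genes tested, 8.09% were called lower and 9.36% higher. The median log2 fold change was -0.25 over the 9 genes and -0.0014 over all genes. With a change of more than 1.5-fold also required, OSGIN1 alone was still called lower and HMOX1 higher, against 0.778% and 3% of all genes. The 3 libraries labelled si-CITED2 lay wholly below the si-Control libraries for 6 genes, KEAP1 included, and wholly above for HMOX1, whereas 16.1% and 16.4% of all genes did so in these directions. For such genes the exact permutation test over the 6 libraries gave its smallest possible p of 0.1. In bulk RNA, fewer cells that carry an mRNA and less of it per cell cannot be told apart.

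**Figure D1:**
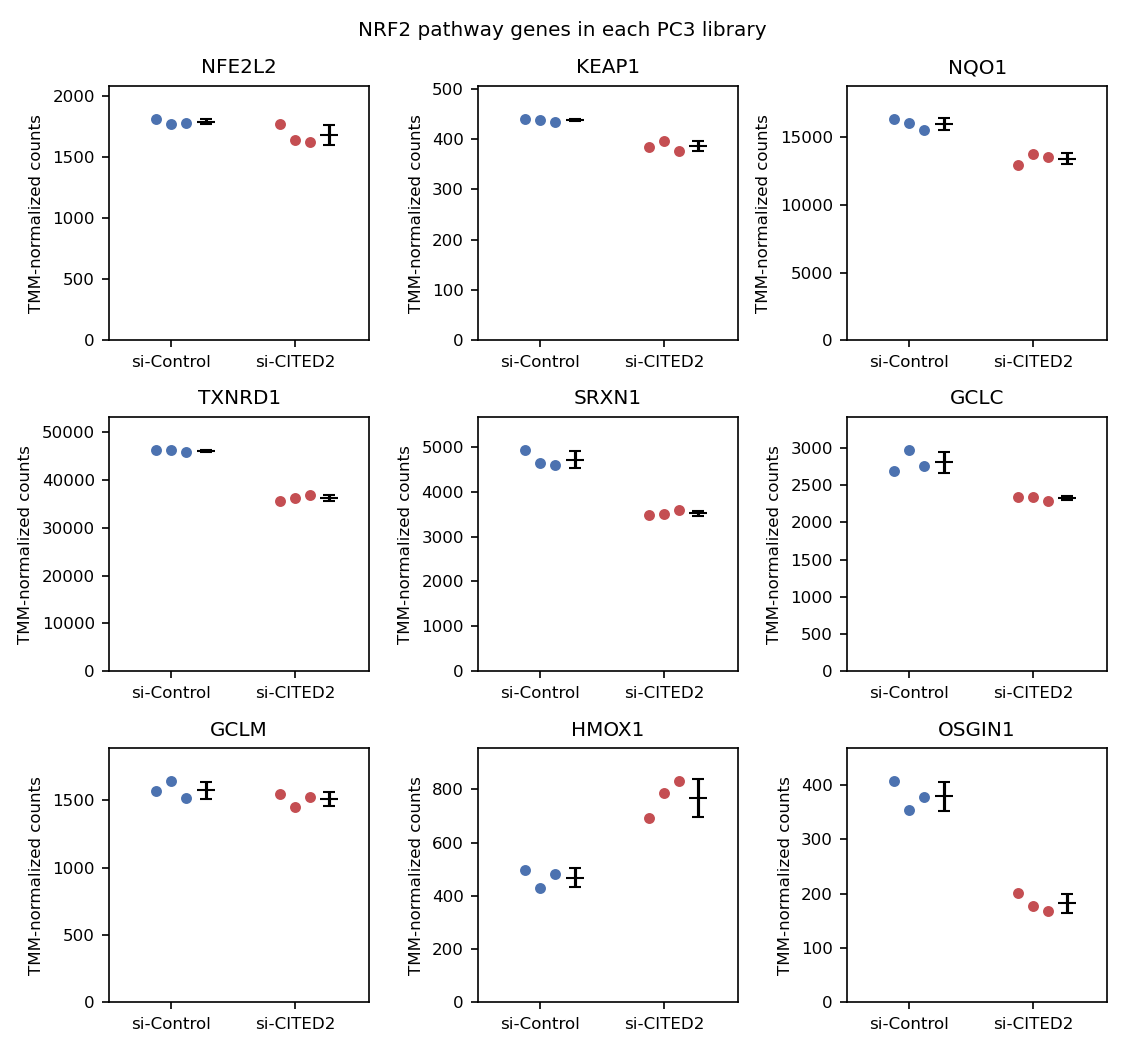
TMM-normalized counts (vertical axes, from 0) of each gene in the 3 si-Control and the 3 si-CITED2 libraries; points are libraries, and the black bars give the mean and SD (n = 3). The groups separate downward for NQO1, TXNRD1, SRXN1, GCLC, OSGIN1 and KEAP1, upward for HMOX1, and overlap for NFE2L2 and GCLM.

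The antioxidant response element has the core letters TGACNNNGC. These were searched on both strands in the RefSeq promoter windows (GRCh38.p14, 250 bases before to 50 after a gene start) that were found for 8 of the 9 genes, 11 windows in all. HMOX1 had no entry. There were 6 matches, in 4 windows of GCLM, KEAP1 and TXNRD1. At least 1 match was held by 13.3% of all 35116 windows and by 14.4% of the 16511 windows of fitted genes. Sequence outside these short windows was not searched, so a window without a match does not mean that a gene lacks the element. They are shown because this is the element through which NRF2 acts on its targets. The lines give 10 bases on either side in lower case, the match in capitals, and the strand of the gene.
GCLM, chr1:93909446-93909474, minus strand: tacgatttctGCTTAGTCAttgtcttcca
KEAP1, chr19:10502784-10502812, minus strand: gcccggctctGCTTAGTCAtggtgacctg
KEAP1, chr19:10502807-10502835, minus strand: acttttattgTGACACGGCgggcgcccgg
TXNRD1, chr12:104215670-104215698, plus strand: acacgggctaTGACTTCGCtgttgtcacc
TXNRD1, chr12:104215761-104215789, plus strand: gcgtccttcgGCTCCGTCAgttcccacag
TXNRD1, chr12:104286920-104286948, plus strand: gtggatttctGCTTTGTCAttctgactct
Windows that begin their capitals with GC hold the core on the opposite strand. GCLM and KEAP1 held the same 9 letters, TGACTAAGC read on that strand, starting 34 and 31 bases before the respective gene start. The fuller form TGACTCAGC was in none of the 11 windows, in 0.561% of all windows and in 0.515% of those of fitted genes. The AP-1 letters TGANTCA, which overlap that fuller form, were found in 7.71% of all windows and 5.6% of those of fitted genes. Among the genes described here they were in the OSGIN1 window alone, 97 bases before the start.
OSGIN1, chr16:83953133-83953159, plus strand: gggcccctgcTGACTCAcgcttatgaa
A match of letters is a description of these windows and no binding was measured.

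Neither gene of the sensor pair passed the test. NFE2L2 had 1811, 1772 and 1784 normalized counts in the si-Control libraries and 1775, 1640 and 1625 in those labelled si-CITED2. The highest of the latter lay inside the si-Control range, so the groups overlapped. The log2 fold change was -0.09 (95% interval -0.21 to 0.02, adjusted p = 0.300, edgeR). KEAP1, the repressor of the pair, had 439.1, 438 and 434.2 normalized counts in si-Control and 383.7, 396.5 and 376.9 in the other libraries. All of the latter were below all of the former, and the si-Control values spread by a coefficient of variation of only 0.59%, under the 4.29% to 5.63% that counting alone gives for so few reads. Its log2 fold change was -0.18 (95% interval -0.35 to -0.01), and it did not pass after adjustment (adjusted p = 0.147, edgeR).

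NQO1, which reduces quinones without releasing radicals and is a standard readout of NRF2, was among the most abundant of the mRNAs. The libraries held 16326, 16060 and 15526 normalized counts in si-Control and 12958, 13741 and 13500 with si-CITED2. No value of the second group reached the lowest of the first. The level was 83.9% of si-Control (log2 fold change -0.25, standard error 0.0462, adjusted p = 0.000896, edgeR).

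Both genes of the thioredoxin arm fell. TXNRD1, the cytosolic selenoenzyme that keeps thioredoxin reduced, ranked 29th by normalized counts among the 16314 genes. Its values were 46155, 46133 and 45759 in si-Control and 35520, 36092 and 36761 in the libraries labelled si-CITED2. The replicates differed by 0.48% and 1.72% (coefficients of variation), while the groups stood apart by -0.35 on the log2 scale (edgeR adjusted p = 1.85e-05, standard error 0.0427). SRXN1, sulfiredoxin, which repairs over-oxidized peroxiredoxins, had 4919, 4629 and 4588 normalized counts in si-Control and 3479, 3491 and 3583 with si-CITED2. Every si-CITED2 library lay well under the si-Control range. It ended at 74.6% of si-Control (log2 fold change -0.42, standard error 0.0486, adjusted p = 9.44e-06, edgeR).

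The subunits of glutamate-cysteine ligase, the enzyme that limits the rate of glutathione synthesis, lay on opposite sides of the threshold, and their difference is given with the ratios of gene pairs. GCLC, the catalytic subunit, had 2697, 2971 and 2760 normalized counts in si-Control and 2338, 2347 and 2293 with si-CITED2. The 3 lower values were all in the libraries labelled si-CITED2, and the level fell to 82.8% (log2 fold change -0.27, standard error 0.0527, adjusted p = 0.00143, edgeR). GCLM, the modifier subunit that raises the affinity for glutamate, had 1567, 1640 and 1513 normalized counts in si-Control and 1546, 1450 and 1526 with si-CITED2. These values overlapped, and the log2 fold change of -0.06 had a 95% interval of -0.18 to 0.06 (adjusted p = 0.511, edgeR).

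HMOX1, the inducible heme oxygenase that breaks heme into biliverdin, iron and carbon monoxide, was the exception in direction. It had 495.9, 428.3 and 481.2 normalized counts in the si-Control libraries. In the libraries labelled si-CITED2 it had 690.9, 785.4 and 830.5. The lowest of these exceeded the highest si-Control value, and the level was 1.65-fold higher (log2 fold change 0.72, standard error 0.0849, adjusted p = 1.21e-05, edgeR). Of all genes tested, 4.08% had a larger absolute change.

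OSGIN1, an oxidative stress-induced inhibitor of growth, changed most among the 9. It had 407.1, 353.4 and 377.7 normalized counts in si-Control and 201.6, 176.8 and 168.7 with si-CITED2. The groups were far apart relative to replicate CVs of 7.08% and 9.39%, close to the 4.67% to 8.06% expected from counting alone. The level fell to 48% of si-Control (log2 fold change -1.06, 95% interval -1.29 to -0.83, adjusted p = 2.15e-06, edgeR), and 1.71% of all genes had a larger absolute change. The 3 genes whose centred log2 profiles over the 6 libraries were nearest to that of OSGIN1, among 12050 genes with a mean of at least 100 normalized counts, were VGF, PC and NAPSA. Their root mean square differences from OSGIN1 were 0.0787, 0.103 and 0.123 log2 units. VGF, a secreted neuropeptide precursor, averaged 913.3 and 424.4 normalized counts in si-Control and si-CITED2. PC, the mitochondrial pyruvate carboxylase, averaged 466.4 and 217.7, and NAPSA, an aspartic protease, 282.4 and 128.2.

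**Figure D2:**
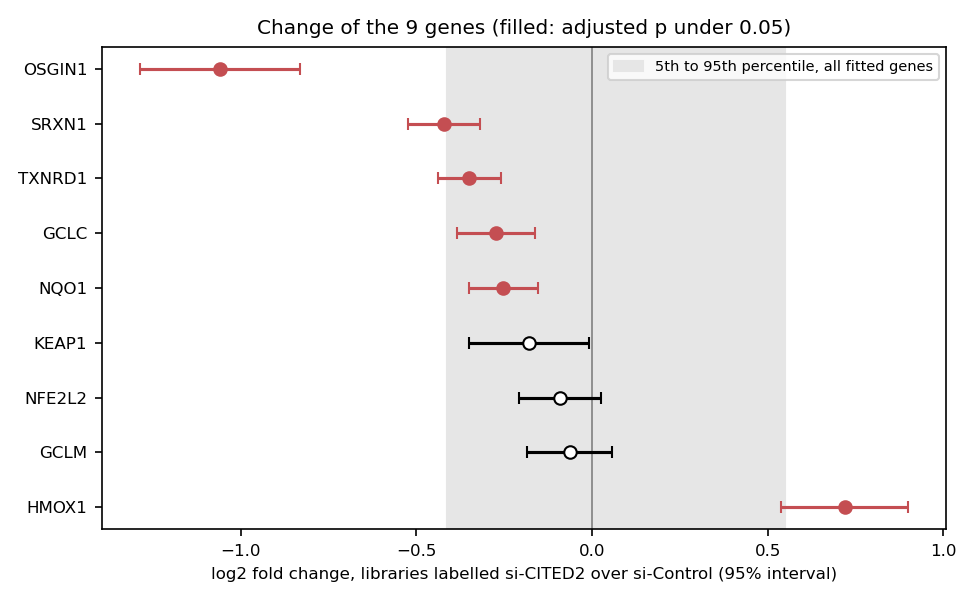
Log2 fold change of the libraries labelled si-CITED2 over si-Control (horizontal axis) with 95% intervals from the edgeR fit of 6 libraries; filled red points passed an adjusted p of 0.05, and the grey band spans the 5th to 95th percentile of all fitted genes (-0.413 to 0.55). The point estimates of OSGIN1 and SRXN1 lie below the band and that of HMOX1 above it. The intervals of SRXN1 (-0.53 to -0.32) and HMOX1 (0.539 to 0.899) reach into the band, and those of NFE2L2 and GCLM include 0.

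Levels were compared between genes as normalized counts per kilobase of exon, with exon lengths from GENCODE 29. On this scale of levels in si-Control, TXNRD1 stood first (6860 ± 33.2, SD, n = 3), followed by NQO1 (4908 ± 125) and SRXN1 (1747 ± 67). GCLC (324.9 ± 16.6), NFE2L2 (299.2 ± 3.38) and GCLM (290.3 ± 11.8) came next, then HMOX1 (194.8 ± 14.8), KEAP1 (116.2 ± 0.691) and OSGIN1 (109.7 ± 7.77). The ranges of NFE2L2 and GCLM overlapped, as did those of KEAP1 and OSGIN1, so the order within these pairs was not resolved. In the libraries labelled si-CITED2, HMOX1 ranked 4 at 319.7 ± 29.6 (rank 6 with the length of the longest transcript), and OSGIN1 was last at 52.7 ± 4.94. The range of HMOX1 there (287.3 to 345.3) overlapped that of NFE2L2 (271.8 to 296.9), so their order was not resolved. The lengths are those of all annotated exons, and an exon that PC3 cells do not use lowers the value of its gene. In the same annotation, 85% of the exon bases of SRXN1 are shared with AL121758.1 on the same strand, 17.7% of those of NQO1 with the antisense gene AC092115.2, 17.6% of those of NFE2L2 with AC019080.1 and 13.9% of those of OSGIN1 with AC009119.2. How the authors counted such reads, and whether strand was used, is not given in the sources used here.

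A ratio of genes inside a library does not depend on how libraries are scaled. For each of 5 pairs the log2 ratio of counts was compared between the groups by a two-sided exact permutation test, with Benjamini-Hochberg adjustment over the pairs. GCLM had 0.581, 0.552 and 0.548 counts per GCLC count in si-Control and 0.661, 0.618 and 0.666 with si-CITED2. The ratio was higher in 3 of 3 libraries labelled si-CITED2, by 0.21 on the log2 scale (exact p = 0.1, adjusted 0.167). HMOX1 had 0.184, 0.158 and 0.167 counts per count of HMOX2, the constitutive heme oxygenase, in si-Control and 0.198, 0.231 and 0.248 with si-CITED2. Here too the groups did not overlap, although HMOX2 itself rose (log2 fold change 0.30, adjusted p = 0.00035, edgeR), and the log2 ratio differed by 0.41 (exact p = 0.1, adjusted 0.167). NFE2L2 had 4.13, 4.05 and 4.11 counts per KEAP1 count in si-Control and 4.63, 4.14 and 4.31 with si-CITED2, a log2 difference of 0.09 with groups that barely separated (exact p = 0.1, adjusted 0.167). Without si-CITED2 replicate 1 that difference was 0.04. The ratios of the reductases to their paralogs overlapped between the groups. NQO1 to NQO2 differed by 0.06 (exact p = 0.4, adjusted 0.4) and TXNRD1 to the mitochondrial TXNRD2 by -0.13 (exact p = 0.2, adjusted 0.25), while NQO2 and TXNRD2 themselves fell, with log2 fold changes of -0.32 and -0.22 (adjusted p = 0.00243 and 0.0235, edgeR). Single libraries decided much of these small differences: NQO1 to NQO2 was 0.02 without si-Control replicate 1, 0.12 without si-Control replicate 3 and 0.10 without si-CITED2 replicate 1, and TXNRD1 to TXNRD2 was -0.08 without si-CITED2 replicate 2.

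**Figure D3:**
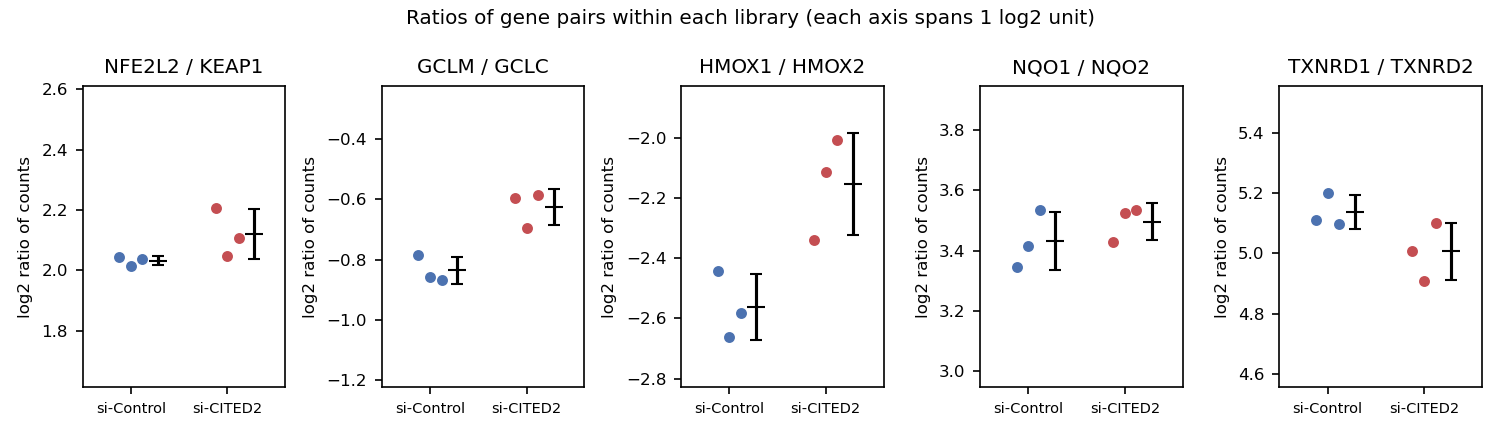
Log2 ratio of counts of 2 genes in the same library (vertical axes, each spanning 1 log2 unit) for 5 gene pairs; points are the 3 si-Control and 3 si-CITED2 libraries, bars the mean and SD. The GCLM/GCLC, HMOX1/HMOX2 and NFE2L2/KEAP1 ratios are higher in every si-CITED2 library, and the other pairs overlap.

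Further genes of the pathway were read from 7 lists by role, 99 genes in all, of which 96 were fitted. Of these, 16 fell and 10 rose, with a median log2 fold change of -0.02, against 17.4% of all genes called in either direction. Leaving out si-CITED2 replicate 2 reduced the rises to 4, and leaving out si-CITED2 replicate 3 reduced the falls to 10 and the rises to 6. Without si-Control replicate 3 or si-CITED2 replicate 1 the rises were also 6. Calls across all genes dropped in these fits too, from 1319 lower and 1527 higher. Without si-CITED2 replicate 2 they were 880 and 1135, and without si-CITED2 replicate 3 they were 897 and 1189. Without si-Control replicate 3 they were 1011 and 1286, and without si-CITED2 replicate 1 they were 1121 and 1323.

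Among 17 regulators of NRF2, 5 rose and 2 fell (median log2 fold change -0.02), against 9.36% higher and 8.09% lower across all genes. The rises were in GSK3B (0.24), the kinase that marks NRF2 for degradation, in MAFK (0.25), a small MAF partner, in BACH1 (0.22), the heme-sensitive repressor that competes at antioxidant response elements, in NFE2L3 (0.19), a relative of NRF2, and in SYVN1 (0.25), a ubiquitin ligase of the endoplasmic reticulum, with adjusted p from 0.00672 to 0.0299 (edgeR). PGAM5, a mitochondrial phosphatase that binds KEAP1, fell (-0.28, adjusted p = 0.000843, edgeR), and so did SQSTM1, the autophagy receptor that sequesters KEAP1 (-0.18, adjusted p = 0.0266, edgeR). CUL3, the scaffold of the KEAP1 ligase, had a log2 fold change of -0.02 (adjusted p = 0.868, edgeR).

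Of the 28 glutathione genes, 27 were fitted, 4 fell and 2 rose (median log2 fold change -0.01), against 8.09% lower and 9.36% higher across all genes. GSR, which regenerates reduced glutathione, went from 5887 ± 81.7 to 4795 ± 79.7 normalized counts (SD, n = 3; log2 fold change -0.30, adjusted p = 0.000199, edgeR). The cystine importer subunits SLC7A11 (-0.17) and SLC3A2 (-0.18) and GGCT (-0.20), a cyclotransferase of gamma-glutamyl amino acids, also fell, SLC7A11 only just passing (adjusted p = 0.0468, edgeR). The transferases GSTP1 (0.39) and GSTO1 (0.25) rose (adjusted p = 0.000302 and 0.00998, edgeR).

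In the thioredoxin list, 2 of 13 genes fell and 1 rose (median log2 fold change 0.01), against 8.09% lower and 9.36% higher across all genes. TXNIP, the inhibitor that binds thioredoxin, fell from 499.3 ± 25.4 to 350.7 ± 49.8 normalized counts (SD, n = 3; log2 fold change -0.51, adjusted p = 0.00169, edgeR), and the other fall was TXNRD2. PRDX1, a peroxiredoxin and itself a substrate of sulfiredoxin, rose by 0.17 on the log2 scale (adjusted p = 0.0317, edgeR). TXN, thioredoxin, had a log2 fold change of -0.06 (adjusted p = 0.537, edgeR). Of 7 genes that supply NADPH, PGD of the pentose phosphate pathway fell (-0.24, adjusted p = 0.00132, edgeR), and the others did not pass (median -0.02).

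The detoxification list had the lowest median, -0.21. In edgeR 4 of 18 fitted genes were lower and 0 higher, against 8.09% lower and 9.36% higher across all genes. At an unadjusted p under 0.05 in edgeR, 8 were lower and 2 higher. The share of all genes at that threshold was not counted, so these counts cannot show whether the list differs from other genes. After adjustment DESeq2 called 4 lower and 0 higher, against 1204 lower and 1352 higher among the 21775 genes it fitted. CYP4F11, a cytochrome P450 with close relatives in the genome, went from 437.8 ± 66 to 237.8 ± 31 normalized counts (SD, n = 3; log2 fold change -0.88, adjusted p = 7.02e-05, edgeR). UGDH (-0.27), which makes UDP-glucuronate, NQO2 (-0.32) and the epoxide hydrolase EPHX1 (-0.27) were the other falls, with adjusted p from 0.000511 to 0.00889 (edgeR). AKR1C1 and AKR1C2, near-identical copies that can share reads, averaged 27.3 and 20.1 normalized counts in si-Control and did not pass.

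Around heme and iron, 3 of 11 genes fell and 1 rose (median log2 fold change -0.02), against 8.09% lower and 9.36% higher across all genes. TFRC, the transferrin receptor, fell by 0.34 on the log2 scale, FTL, ferritin light chain, by 0.20, and ALAS1, which starts heme synthesis, by 0.15 (adjusted p = 0.000661, 0.0225 and 0.0399, edgeR), while HMOX2 was the rise. FTL and FTH1 have many processed pseudogenes that could share their reads. FTH1 had a log2 fold change of -0.02 (adjusted p = 0.855, edgeR). Of the superoxide and peroxide enzymes, SOD2 rose (0.15, adjusted p = 0.0444, edgeR), whereas SOD1 (0.11) and CAT (-0.18) did not pass.

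**Figure D4:**
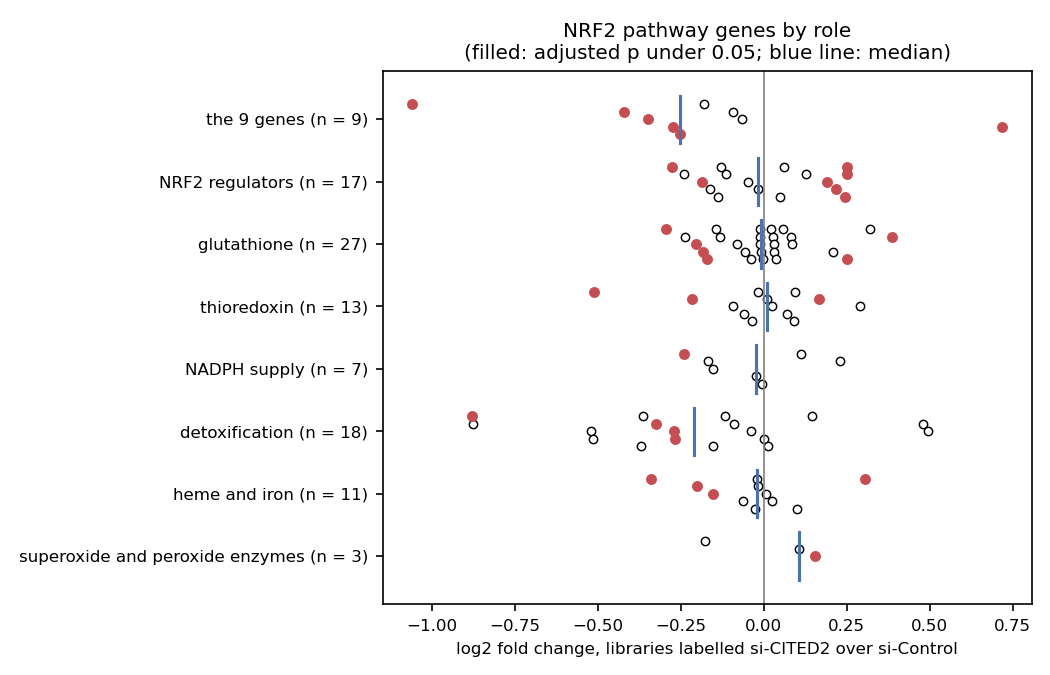
Log2 fold change of the libraries labelled si-CITED2 over si-Control (horizontal axis) for the 9 genes and for the fitted genes of each of 7 lists (rows, n in the labels); each point is a gene, filled red where the adjusted p was under 0.05, and the blue line is the median of the row. The medians of the 9 genes (-0.25) and of the detoxification list (-0.21) lie to the left of the other lists.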

How the data were processed

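RNA was extracted with Trizol and sequenced after SMARTer mRNA-seq library preparation, per the labels. The values deposited by the authors are raw read counts by gene symbol, in a separate file for every library. The submitters' processing notes name TopHat, edgeR and hg19 without versions or roles; the counting program, annotation and strand setting are not given in the sources used here, so reads shared by overlapping genes or copies are uncertain.

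Each file holds 25737 rows; where a symbol was repeated, the row with the highest total was used, and the rows dropped held 0.082% of counts. The fit used edgeR 4.0.16 under R 4.3.3, with filterByExpr at its defaults, TMM normalization and the quasi-likelihood test (glmQLFit, glmQLFTest) without a block over all 6 libraries and genes, with Benjamini-Hochberg adjustment and a threshold of 0.05. Standard errors came from the F statistic, and 95% intervals from its degrees of freedom. Normalized counts are counts divided by the effective library size relative to its mean. A level of 3 counts, taken as the floor, equals 0.104 to 0.154 CPM; counting CVs cover counting error only. No replicates looked like one library deposited again (chi-square between replicate pairs 2.9 to 7.57 times its degrees of freedom). Lengths came from GENCODE 29 (GRCh38), and promoter sequences from RefSeq (GRCh38.p14); no coordinate was carried over from hg19.

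The text names the 9 genes, CITED2, ratio partners, markers, up to the 4 genes of each list with the smallest p (and any further called genes where a count was 5 or fewer), and the 3 genes most like the one with the smallest p. Genes of the lists named with values that did not pass were chosen after their values were seen. Some marker genes are not reported here. The genes and lists were chosen with earlier results of these data known. Alternatives were DESeq2 1.42.0, other scalings, filters and call rules, summed repeated symbols, the replicate number as a block and leaving out each library.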

Additional observations from a re-analysis of the deposited data

How the results depend on the processing

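The 6 calls among the 9 genes held at an adjusted p under 0.05 in each of the 6 fits without a library. They also held in DESeq2, library size without TMM, median-of-ratios factors, both other filters, summed symbols and the replicate block. None of the 9 genes had a repeated symbol, so summing left their own counts unchanged. No fold change or ratio changed sign in any alternative in which it was computed. Ratios were computed only without each library, with the block and with summed symbols. The block and the summed symbols gave the same ratio differences as the main setting, the block by construction. Requiring a change over 1.5-fold left 1 of the 9 genes lower and 1 higher, removed NQO1, TXNRD1, SRXN1 and GCLC, gave 127 lower and 489 higher genes across all genes, left 1 lower and 0 higher genes in the further lists, and removed the call of CITED2 (0.24). CITED2 also lost its call on library size without TMM (0.22, adjusted p = 0.0519, edgeR). Without single libraries its log2 fold change ranged from 0.17 to 0.29, and the further lists had 10 to 18 lower and 4 to 9 higher genes. Across all genes the same fits gave 880 to 1328 lower and 1135 to 1519 higher genes.

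The labels number the libraries 1 to 3 in both groups. The deviations of same-numbered libraries from their group means had r = -0.044, 0.029 and -0.022 across genes. With 3 libraries per group, such values cannot decide whether libraries of the same number shared a transfection round. With the replicate number as a block, 1154 genes were lower and 1405 higher, and among the 9 genes 5 were lower and 1 higher; log2 fold changes were -1.06 for OSGIN1, 0.72 for HMOX1 and 0.24 for CITED2 (adjusted p = 0.0464, edgeR). With lengths of the longest transcript, KEAP1 and OSGIN1 exchanged the last 2 ranks by level in si-Control. In the libraries labelled si-CITED2, GCLC then ranked 4 instead of 7, HMOX1 6 instead of 4 and GCLM 7 instead of 6. Depth limits KEAP1 and OSGIN1 most, whose 154 to 544 counts per library give the widest counting error of the 9.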
